A study of Mus musculus with 36 samples.

Results

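The clustered protocadherins are cell-surface adhesion genes that lie in 3 neighbouring groups, the alpha, beta and gamma clusters, on mouse chromosome 18. Members were the genes of the deposited count table whose symbol begins with Pcdha, Pcdhb or Pcdhg and that had at least 10 counts in 3 or more of the 36 libraries. All 58 genes with such a symbol met this minimum, of 51912 genes listed, and they comprised 14 alpha, 22 beta and 22 gamma genes. All 58 were also among the 17990 genes that passed the filter on low counts and were tested. Polyadenylated RNA had been sequenced from HM1 cells, a mouse embryonic stem cell line, that were brought to a neuromesodermal progenitor state and then led towards spinal motor neurons. Libraries were made at days 0, 0.5, 1, 1.5, 2, 2.5, 3, 3.5, 4, 5, 6 and 7, with 3 replicates a day. All cells had passed through medium with bFGF and then CHIR99021, SB431542 and DMH1 before day 0. The day 0 libraries are labelled as the control, and all later ones carried 100 nM retinoic acid (RA) and 500 nM SAG, an agonist of Smoothened in the hedgehog pathway. No later day has an untreated group here, so effects of time and of RA with SAG cannot be told apart. The labels call the replicates biological and do not state that each was its own culture, so a p-value here reflects only how far these samples scatter. All libraries come from a single cell line.

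Protocadherin proteins of these clusters sit on the surface of neurons, bind copies of themselves on facing membranes, and are known for letting the branches of a neuron recognise each other. In the alpha and gamma clusters each gene has a variable first exon with its own promoter, which codes for the outer part of the protein and is spliced to constant exons that code for a shared tail inside the cell. Beta genes consist of a variable exon only. Neurons are known to switch on few of the variable promoters each, in combinations that differ from cell to cell, with a part played by CTCF, cohesin and DNA methylation. The last genes of the alpha and gamma clusters, Pcdhac1, Pcdhac2, Pcdhgc3, Pcdhgc4 and Pcdhgc5, are called C-type and are known to be regulated apart from the others.

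In the GRCm38 build with GENCODE M21 annotation, all members lie on the plus strand of chromosome 18. Alpha genes span positions 36930184 to 37187661, beta genes 37264938 to 37524479 and gamma genes 37661793 to 37841873. All 14 alpha genes share 2860 exonic bases in 3 blocks, and all 22 gamma genes share 2116 exonic bases in 3 blocks, whereas no exonic base is shared by all beta genes and 20 of 22 beta genes have exons of their own throughout. The deposited counts are expected counts, in which a read that matches several genes is divided among them. Of the values of the alpha genes 95.8% were not whole numbers, against 98.5% for gamma and 57.7% for beta, and 6.87% over the whole table. Antisense exons overlap 4 alpha, 1 beta and 8 gamma members, and strand use in the counting is not given in the sources used here, so those members are uncertain. The symbol Pcdha11 is carried by 2 gene IDs, ENSMUSG00000007440 and ENSMUSG00000102206, which were kept as separate members.

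The division of shared reads bears most on Pcdhgc4. From the ratio of counts to TPM (a level scaled to transcript length and library size), the transcript length that underlies each member's value can be recovered: for 36 members with a single annotated transcript it came out at 0.990 to 1.009 of the annotated length. For Pcdhgc4 it came out at a median of 2354 bases (2249 to 2563 over libraries), close to a short transcript of 2272 bases of which 2116 lie in the exons shared by all gamma genes and 156 do not. The longest Pcdhgc4 transcript has 5024 bases. For Pcdhgc3 the same reckoning gave 4636 bases, against 4687 for its longest transcript. The listed level of Pcdhgc4 therefore rests mainly on reads in exons that it shares, and the gamma sums at days 0 and 7 and the cluster ratios are also given without it.

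Library totals ranged from 26567321 to 35757989 counts, and the members together took 0.0296% to 0.136% of them. The labels call the cells neural progenitors on every day. Of 10 progenitor markers, 10 rose from day 0 to day 2, 2 rose and 7 fell from day 2 to day 4, and 8 fell from day 4 to day 7. Their summed level was 428 to 442 TPM at day 0, 2838 to 2970 at day 2, 3450 to 3542 at day 4 and 3276 to 3393 at day 7. The sum thus rose from day 2 to day 4 while most of these genes were called lower. Of 14 neuron markers, 12 rose from day 0 to day 2, 14 rose from day 2 to day 4, and 7 rose and 4 fell from day 4 to day 7. Their sum went from 259 to 265 TPM at day 0 to 898 to 1023 at day 2, 4102 to 4432 at day 4 and 4298 to 4537 at day 7, so the later libraries carry neuronal RNA beside the labelled type. Astroglial markers were higher for 7 of 8 genes at day 7 than at day 4, with sums of 3495 to 3650 TPM at day 7 against 1626 to 1928 at day 4, most of it from Fabp7, which progenitors also express (3188 TPM at day 7), and S100b was at 0 at days 0, 2 and 4. Endothelial markers rose for 8 of 8 genes from day 0 to day 2, with sums of 8.18 to 8.89 TPM and 58.3 to 95.03 TPM, and stood at 49.9 to 56.2 TPM at day 7. Of all genes tested, 36.7% rose and 36.2% fell from day 0 to day 2, and 33.1% and 31.8% from day 2 to day 4. From day 4 to day 7 these shares were 33.5% and 32.9%. The part of these cell types in the results that follow was not tested. In such bulk samples, fewer cells of a type and less RNA per cell cannot be told apart.

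The alpha and beta clusters started at similar levels, far below the gamma cluster, and the 3 clusters first left their day 0 levels at unlike times. All replicates lay above all day 0 sums from day 0.5 for beta, day 2 for alpha and day 2.5 for gamma. The later rise was closer in time, with beta somewhat ahead. At day 3.5 the alpha, beta and gamma sums stood at 44.6%, 53.7% and 42.0% of their highest day mean. At day 4 they stood at 55.0%, 62.9% and 51.9%. Summed over its 14 genes, the alpha cluster stood at 6.39, 6.03 and 6.08 TPM in the day 0 replicates, fell to a mean of 4.62 TPM at day 0.5 and 4.82 TPM at day 1.5, and reached 13.4 ± 0.14 TPM at day 2 (SD, n = 3). It then rose without a fall in the day means to 66.35, 66.04 and 68.4 TPM at day 7, which is 10.9 times its day 0 mean. All alpha sums from day 2 on lay above all day 0 sums, and none at days 0.5 to 1.5 did.

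The beta cluster stood at 5.80, 6.14 and 5.90 TPM at day 0, level with the alpha cluster, and rose at each following day. Its mean was 9.56 TPM at day 0.5, 16.6 at day 1, 25.3 at day 1.5 and 53.4 ± 3.24 at day 2, when the alpha sum stood at 2.17 times its own starting level. At day 7 the beta replicates held 226.69, 218.66 and 221.35 TPM, 37.4 times the day 0 mean. Beta sums of every later day lay above all day 0 sums.

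The gamma cluster was the most abundant of the 3 at every day, with 115.06, 122.9 and 130.53 TPM at day 0 and 370.72, 369.6 and 373.39 TPM at day 7, or 3.02 times as much. Its 2 kinds of gene moved apart at first. The 19 variable gamma genes rose from 24.7 ± 0.39 TPM at day 0 to 34.7 ± 0.79 at day 0.5 and 55.8 ± 0.69 at day 2 (SD, n = 3), and reached 150.2 ± 1.96 at day 7. The 3 gamma C-type genes fell from 98.1 ± 7.48 TPM at day 0 to 62.2 ± 2.24 at day 1.5, were at 76.8 ± 1.73 at day 2, and reached 221.1 ± 2.80 at day 7. Without Pcdhgc4 the gamma sum was 79.0 ± 1.26 TPM at day 0 and 277.8 ± 5.64 TPM at day 7.

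**Figure D1:**
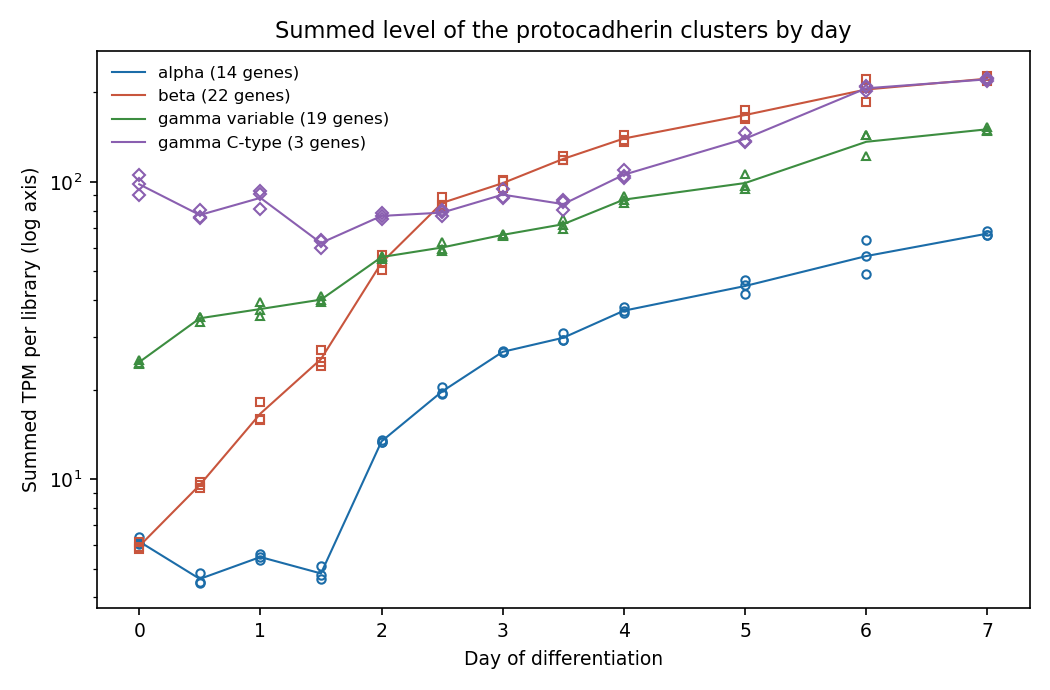
Summed TPM (log axis) against day for the alpha and beta clusters and for the variable and C-type genes of the gamma cluster, with a marker for each library and lines through the day means (n = 3). Alpha and beta start level near 6 TPM and separate by day 0.5, while the gamma C-type genes dip to 62.2 TPM at day 1.5 before they rise.

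Ratios between the cluster sums within a library do not depend on how libraries are scaled. On the log2 scale the ratio of beta to alpha went from -0.05 ± 0.08 at day 0 to 2.39 ± 0.01 at day 1.5, its highest day, and to 1.73 ± 0.04 at day 7 (SD, n = 3). The ratio of beta to gamma went from -4.37 ± 0.09 at day 0 to -0.39 ± 0.04 at day 3.5 and -0.74 ± 0.03 at day 7. The ratio of alpha to gamma stayed between -4.60 and -4.31 in its day means up to day 1.5, then went to -3.31 ± 0.03 at day 2 and -2.47 ± 0.02 at day 7. Each ratio differed between days by more than its spread between replicates: a permutation test over the 36 libraries gave p = 1e-05 for each of the 3, the smallest value that 100000 shuffles of the day labels can give, and 1e-05 after Benjamini-Hochberg adjustment. From day 0 to day 7 the log2 ratios moved by 1.78 for beta to alpha, 3.63 for beta to gamma and 1.84 for alpha to gamma. The C-type genes weigh on the ratios to gamma: without the 5 of them the last 2 values were 2.62 and 1.01, and without Pcdhgc4 alone they were 3.41 and 1.63. When each member counted equally (the mean of log2(TPM + 0.1) over members), the move was 2.51 for beta to gamma but 0.09 for alpha to gamma. In that cluster Pcdha1 to Pcdha5 rose by 3.10 or more on the log2 scale and the other variable genes by less.

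**Figure D2:**
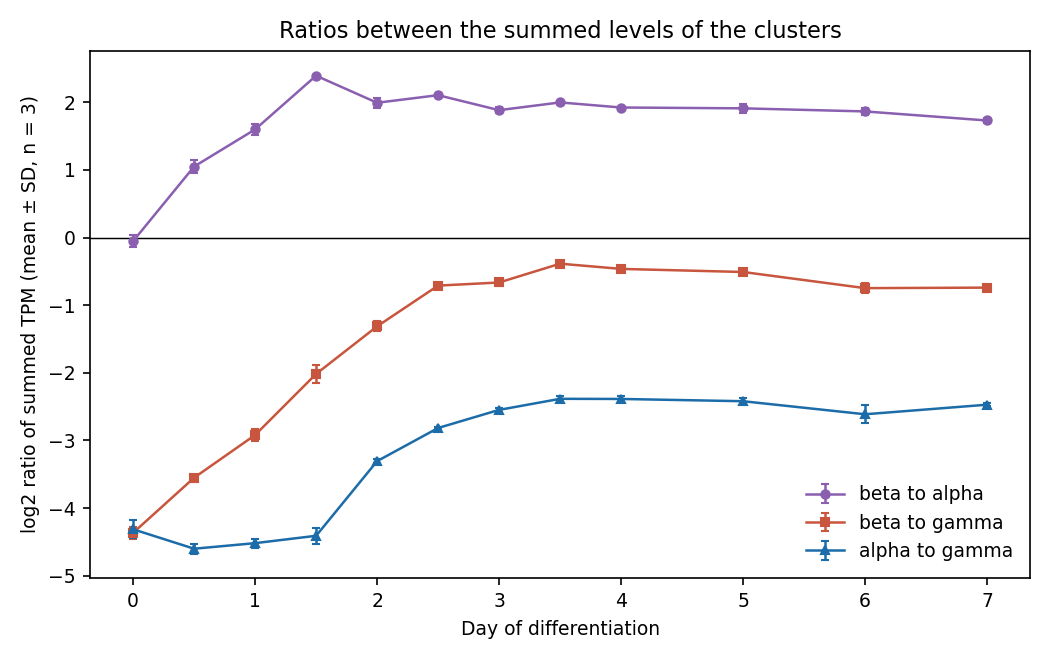
Mean log2 ratio of summed TPM between the clusters against day, with bars for the SD of 3 replicates. Beta to alpha reaches 2.39 at day 1.5 and stays above 1.7 afterwards. Alpha to gamma lies below its day 0 mean at days 0.5 to 1.5 and is first above it at day 2.

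Between day 0 and day 2 the beta cluster rose nearly as a whole, the variable alpha and gamma genes rose in part, and the C-type genes fell or did not pass the test. In edgeR's quasi-likelihood test over all 17990 genes, 44 of the 58 members were higher and 5 lower at a Benjamini-Hochberg adjusted p under 0.05, against a background of 36.7% of all genes higher and 36.2% lower. By cluster, 7 of 14 alpha genes were higher and 1 lower, 21 of 22 beta genes were higher and 0 lower, and 16 of 22 gamma genes were higher and 4 lower. The median log2 fold change was 1.10 for alpha, 3.41 for beta and 1.05 for gamma, beside 0.01 for all genes tested. Fold changes come from scaled counts and differ somewhat from ratios of TPM. The comparisons of days 2 and 7 with day 0 share the day 0 libraries, and each step shares a day with the next.

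Among beta genes that reached 1 TPM, Pcdhb17, Pcdhb16 and Pcdhb19 had the largest increases at this step. They lie close together towards the end of the cluster, with Pcdhb18, which rose by less (log2 fold change 3.63 ± 0.17, SE), among them. Below 1 TPM, Pcdhb15, next to Pcdhb16, rose by 5.00 ± 0.40 (mean 0.99 TPM at day 2). Pcdhb9, in the middle of the cluster, rose by 4.93 ± 0.77 (0.26 TPM). Pcdhb5, nearer the start of the cluster, was close to Pcdhb19 with 4.05 ± 0.26. Pcdhb17 (37484795 to 37489454) held 0.17, 0.10 and 0.18 TPM at day 0 and 3.59, 3.62 and 3.40 TPM at day 2, and its log2 fold change was 4.43 ± 0.13 (SE, edgeR adjusted p = 4.3e-25). Pcdhb16 (37477814 to 37483038) held 0.14, 0.17 and 0.12 TPM and then 3.75, 2.95 and 2.78 TPM, with a log2 fold change of 4.36 ± 0.17. Pcdhb19 (37496991 to 37504128) held 0.10, 0.13 and 0.09 TPM and then 2.14, 1.85 and 2.05 TPM, with a log2 fold change of 4.14 ± 0.16. In Pcdhb16, Pcdhb17 and Pcdhb19 the day 2 replicates lay above those of day 0 without overlap. These genes were chosen for large fold changes, so the gap adds no separate support. Pcdhb22 (37517871 to 37524479), the last beta gene and the most abundant one at day 0, had already risen from 1.49, 1.71 and 1.55 TPM to 10.32, 10.29 and 10.91 TPM, a log2 fold change of 2.65 ± 0.08.

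Among the variable alpha genes the first members of the cluster rose. Pcdha4 (36952648 to 37187661), the most abundant alpha gene from day 2 on, went from 0.94, 0.65 and 0.70 TPM at day 0 to 3.67, 3.25 and 3.18 TPM at day 2, a log2 fold change of 2.14 ± 0.17 (SE, edgeR adjusted p = 2.2e-13). Pcdha2 went from a mean of 0.40 TPM to 2.08 TPM (log2 fold change 2.32 ± 0.19) and Pcdha3 from 0.53 TPM to 1.69 TPM (1.57 ± 0.14). Replicates of the 2 days did not overlap for these 3 genes. Pcdha12 (37020149 to 37187657), the last variable alpha gene and the most abundant alpha gene at day 0, did not pass the test: it held 2.00, 1.81 and 1.94 TPM at day 0 and 2.01, 2.43 and 2.64 TPM at day 2, with a log2 fold change of 0.19 ± 0.12 (edgeR adjusted p = 0.14), and it passed the test without the first day 2 replicate (0.30, adjusted p = 0.031).

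Of the variable gamma genes, which comprise the Pcdhga and Pcdhgb subfamilies, 16 of 19 were higher at day 2, namely 10 of 12 Pcdhga genes and 6 of 7 Pcdhgb genes. Pcdhga7 (37714764 to 37841873), the variable gamma gene with the highest mean level over the 36 libraries, went from 1.90, 1.81 and 1.72 TPM to 6.17, 7.43 and 6.74 TPM, a log2 fold change of 2.14 ± 0.08 (SE, edgeR adjusted p = 1.2e-22). By contrast Pcdhga11 (37755731 to 37841873), with 5.24, 5.04 and 4.88 TPM at day 0 and 5.30, 5.30 and 5.13 TPM at day 2, did not pass the test (log2 fold change -0.06 ± 0.07, edgeR adjusted p = 0.46). Its value was 0.04 in limma on log2(TPM + 1), so it has no settled direction at this step. Antisense exons cover 29.0% of the exonic bases of Pcdhga11 and 10.3% of those of Pcdhga7. The same share was 28.4% for Pcdhgc3, 9.95% for Pcdha12, 8.79% for Pcdhga8, 6.81% for Pcdha4 and 6.33% for Pcdhga12.

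The 5 genes that were lower at day 2 were Pcdhac1, Pcdhgc3, Pcdhgc4, Pcdhgc5 and Pcdhga12, of which the last was named after its values were seen. They include 4 of the 5 C-type genes, beside 36.2% of all genes tested that were lower, and 0 of the 5 were higher. Of the 4, Pcdhgc4 rests mainly on exons shared by all gamma genes, and Pcdhac1 and Pcdhgc5 on few counts. Pcdhgc3 (37806364 to 37841873), the most abundant member in every day mean, held 51.82, 54.76 and 52.97 TPM at day 0 and 44.72, 44.74 and 47.58 TPM at day 2, a log2 fold change of -0.32 ± 0.04 (SE, edgeR adjusted p = 2.4e-08). Pcdhgc4 (37815079 to 37841873) held 37.43, 42.85 and 51.10 TPM and then 31.24, 29.74 and 29.99 TPM (-0.65 ± 0.10). Pcdhac1 (37090013 to 37187657) held 0.35, 0.34 and 0.34 TPM and then 0.15, 0.16 and 0.13 TPM (-1.33 ± 0.33). In these 3 genes the day 2 replicates all lay below those of day 0. Pcdhgc5 (37819513 to 37841873) held 1.17, 0.87 and 1.29 TPM and then 0.55, 0.67 and 1.02 TPM, values that overlap, with a log2 fold change of -1.10 ± 0.27 in counts that did not pass the test in TPM (limma adjusted p = 0.21). Pcdhga12 held a mean of 0.66 TPM and then 0.37 TPM (-0.99 ± 0.31). Pcdhac2 (37143503 to 37187657), the remaining C-type gene, had 0.52 ± 0.11 and 0.50 ± 0.10 TPM (SD, n = 3; edgeR adjusted p = 0.62).

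**Figure D3:**
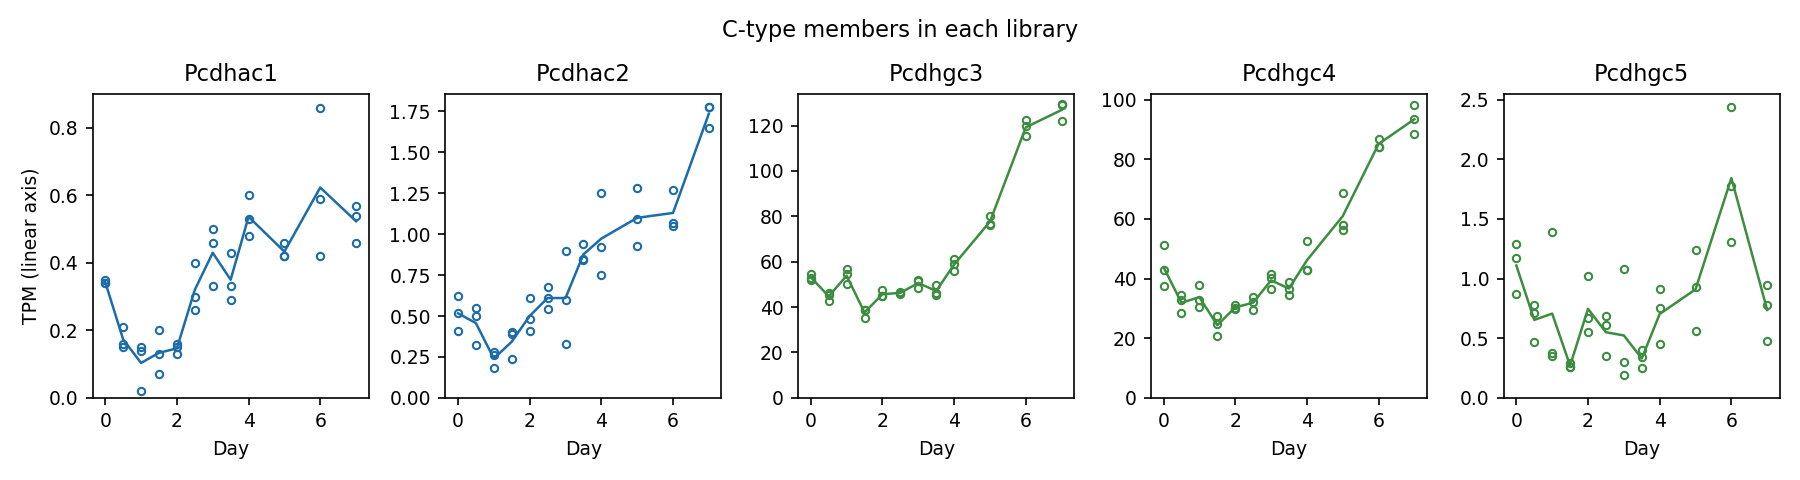
TPM of the 5 C-type members in each library against day, on linear axes that start at 0 and differ between panels, with lines through the day means. Pcdhgc3 and Pcdhgc4 fall to 37.6 and 24.3 TPM at day 1.5 and end at 127 and 93.4 TPM, whereas Pcdhac1, Pcdhac2 and Pcdhgc5 stay below 2.5 TPM.

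From day 2 to day 4 most members of all 3 clusters rose. In the same fit 47 members were higher and 1 was lower, beside 33.1% and 31.8% of all genes tested. By cluster, 10 of 14 alpha, 21 of 22 beta and 16 of 22 gamma genes were higher, with median log2 fold changes of 1.02, 1.18 and 0.46, beside 0.01 for all genes. Over the alternative settings the number higher was 41 to 48.

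Pcdhb10, Pcdhb9 and Pcdhb5 had the largest increases at this step among members of at least 1 TPM. Pcdhb10 (37411664 to 37414514) went from 1.79, 1.26 and 1.30 TPM at day 2 to 10.43, 11.52 and 9.14 TPM at day 4, a log2 fold change of 2.66 ± 0.13 (SE, edgeR adjusted p = 2.4e-18). Pcdhb9 (37400855 to 37403909) went from 0.24, 0.31 and 0.23 TPM to 1.34, 1.25 and 1.48 TPM (2.17 ± 0.30) and Pcdhb5 (37320381 to 37323915) from 1.44, 1.16 and 1.37 TPM to 5.72, 6.63 and 6.46 TPM (2.05 ± 0.13). The replicates of the 2 days were well apart in all 3 genes, which were chosen for large fold changes. Pcdhb22, which had risen early, gained only 0.35 ± 0.06. Of the alpha genes Pcdha3 rose most among those above 1 TPM, from 1.92, 1.58 and 1.57 TPM to 7.68, 7.53 and 6.97 TPM (1.94 ± 0.10), and Pcdha12 rose from a mean of 2.36 TPM to 4.20 TPM (0.63 ± 0.11).

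Pcdhga8 (37725706 to 37841873) was the lower member at this step. It held 1.47, 0.98 and 1.27 TPM at day 2 and 0.59, 0.72 and 0.85 TPM at day 4, a log2 fold change of -0.97 ± 0.22 (SE, edgeR adjusted p = 0.00032). All day 4 replicates lay below those of day 2. It had risen by 1.08 ± 0.23 from day 0 and rose again by 0.81 ± 0.23 from day 4 to day 7. Of the C-type genes, Pcdhac1 rose by 1.68 ± 0.32, Pcdhac2 by 0.74 ± 0.24, Pcdhgc4 by 0.46 ± 0.10 and Pcdhgc3 by 0.16 ± 0.04 on the log2 scale. The call for Pcdhac2 rests on single libraries: its edgeR adjusted p was 0.0082 with all of them, 0.054 without the second day 2 replicate and 0.082 without the first day 4 replicate.

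Between day 4 and day 7, 19 of 22 gamma genes rose, whereas Pcdha12 and Pcdhb22, the last variable genes of the alpha and beta clusters, did not. In all, 41 members were higher and 1 lower, beside 33.5% and 32.9% of all genes tested, and 6 of 14 alpha and 16 of 22 beta genes were higher. The median log2 fold change was 0.40 for alpha, 0.64 for beta and 0.76 for gamma, beside -0.00 for all genes.

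Pcdhgc3 rose from 59.11, 61.37 and 55.90 TPM at day 4 to 129.29, 122.02 and 129.46 TPM at day 7, a log2 fold change of 1.07 ± 0.04 (SE, edgeR adjusted p = 2.4e-21). Pcdhgc4 rose from 42.94, 42.71 and 52.65 TPM to 88.58, 98.16 and 93.53 TPM (1.04 ± 0.10). For both the day 7 replicates lay far above those of day 4, and neither had exceeded 61.4 TPM in a library up to day 4. Pcdhga7 went from a mean of 10.9 TPM to 21.2 TPM (0.94 ± 0.06) and Pcdhga11 from 8.94 TPM to 13.5 TPM (0.54 ± 0.06).

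The first alpha genes and Pcdhb9 had the largest increases at this step. Pcdha1 (36930184 to 37187661), the first gene of the alpha cluster, held 0.78, 0.81 and 0.78 TPM at day 4 and 2.52, 2.95 and 2.84 TPM at day 7, a log2 fold change of 1.75 ± 0.21 (SE, edgeR adjusted p = 4.0e-09). Pcdha2 (36939205 to 37187657) went from 5.84, 5.33 and 5.49 TPM to 13.33, 12.44 and 14.14 TPM (1.29 ± 0.12) and Pcdhb9 from a mean of 1.36 TPM to 4.41, 4.51 and 4.05 TPM (1.61 ± 0.22). None of these replicates overlapped between the days, in genes chosen for large fold changes. Pcdha12 held 4.20 ± 0.06 TPM at day 4 and 4.44 ± 0.20 TPM at day 7 (SD, n = 3). Its log2 fold change was 0.03 ± 0.11 (SE, edgeR adjusted p = 0.84), and -0.02 without the third day 7 replicate. Pcdhb22 was the lower member, with 14.34, 13.81 and 13.83 TPM at day 4 and 13.10, 12.33 and 11.81 TPM at day 7 (log2 fold change -0.16 ± 0.06, edgeR adjusted p = 0.018). That call was lost without the first day 4 replicate (adjusted p = 0.098), without the third day 7 replicate (0.084) and in limma on log2(TPM + 1) (0.068).

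Over the whole course from day 0 to day 7, 53 members were higher and 2 lower, beside 44.1% and 41.2% of all genes tested. All 22 beta genes were higher, as were 11 of 14 alpha and 20 of 22 gamma genes, and the 2 lower ones were both gamma. Median log2 fold changes were 1.66 for alpha, 5.06 for beta and 2.10 for gamma, beside 0.05 for all genes. The count of higher members was 51 to 56 over the alternative settings.

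Pcdhb9 changed most in proportion but from almost nothing: the 3 day 0 libraries held 1 count in all and the 3 day 7 libraries 640, a ratio of counts per library size of 613 with a 95% counting interval of 110 to 24244. Pcdhb10 went from 0.07, 0.06 and 0.14 TPM at day 0 to 23.62, 22.70 and 22.15 TPM at day 7, a log2 fold change of 7.60 ± 0.20 (SE, edgeR adjusted p = 3.2e-27). Pcdhb5 went from 0.08, 0.10 and 0.03 TPM to 11.08, 10.86 and 11.37 TPM (6.88 ± 0.20). The most abundant beta genes at day 7, on the TPM scale, were Pcdhb2 (37294812 to 37297624) with 30.44, 27.70 and 32.80 TPM, Pcdhb11 (37421418 to 37425836) with 28.32, 27.88 and 25.86 TPM, and Pcdhb10. Replicates of Pcdhb2 and Pcdhb11 overlapped, so these 2 are not set apart by level. From day 0 Pcdhb2 and Pcdhb11 had risen by 4.51 ± 0.13 and 5.16 ± 0.09. The level of Pcdhb2 mixes a long and a short transcript, as its recovered length was 2006 bases in the median, against 2813 for the longest. Likewise the median was 4728 against 6609 bases for Pcdhb22. For Pcdhgc5 it was 3025 against 5777 bases, with a range of 1492 to 5380 over libraries.

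In the alpha cluster, Pcdha1 had the largest log2 fold change, 6.54 ± 0.35 (SE, edgeR adjusted p = 2.6e-18), from 0, 0.03 and 0.05 TPM at day 0. Pcdha4 held 24.54, 24.86 and 25.62 TPM at day 7, 37.4% of the alpha sum, and had risen by 4.91 ± 0.14. Of its exonic bases 8.56% belong to no other gene, the rest being shared with the other alpha genes or with overlapping genes such as Gm42416, which is listed at a mean of 0.171 TPM. Pcdha2 and Pcdha3 followed with 13.3 ± 0.85 and 12.3 ± 0.37 TPM (SD, n = 3), whose replicates overlap. Pcdha6, Pcdha7, Pcdha8 and Pcdha9 stayed at or below 0.35 TPM in every day mean.

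Of the gamma genes Pcdhgc3 rose by 0.90 ± 0.04 and Pcdhgc4 by 0.86 ± 0.10 over the course (log2 ± SE), less than Pcdhga7 with 3.56 ± 0.07 and about as much as Pcdhga11 with 1.06 ± 0.07. The largest increase was that of Pcdhga5, 3.64 ± 0.11, from 1.01 TPM to 16.2 TPM in the means, a gene named after its values were seen. The 2 lower members were low in level throughout, and Pcdhgc5 did not decline steadily: its highest day mean, 1.84 TPM, was at day 6. Pcdhgc5 had 1.17, 0.87 and 1.29 TPM at day 0 and 0.48, 0.78 and 0.95 TPM at day 7, which overlap, with a log2 fold change of -0.79 ± 0.26 (SE, edgeR adjusted p = 0.0063) that did not pass in limma on log2(TPM + 1) (-0.285, adjusted p = 0.17). Pcdhga12 had 0.55, 0.65 and 0.78 TPM at day 0 and 0.40, 0.59 and 0.41 TPM at day 7, which also overlap (-0.85 ± 0.30, edgeR adjusted p = 0.0097). Neither gene was called lower in either limma fit, where the count of lower members was 0. Among the other C-type genes Pcdhac2 rose by 1.38 ± 0.23, to 1.78, 1.78 and 1.65 TPM, and Pcdhac1, with 0.34 and 0.52 TPM in the means, did not pass the test (0.24 ± 0.28, edgeR adjusted p = 0.43) except in limma on log2(TPM + 1) (adjusted p = 0.021).

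**Figure D4:**
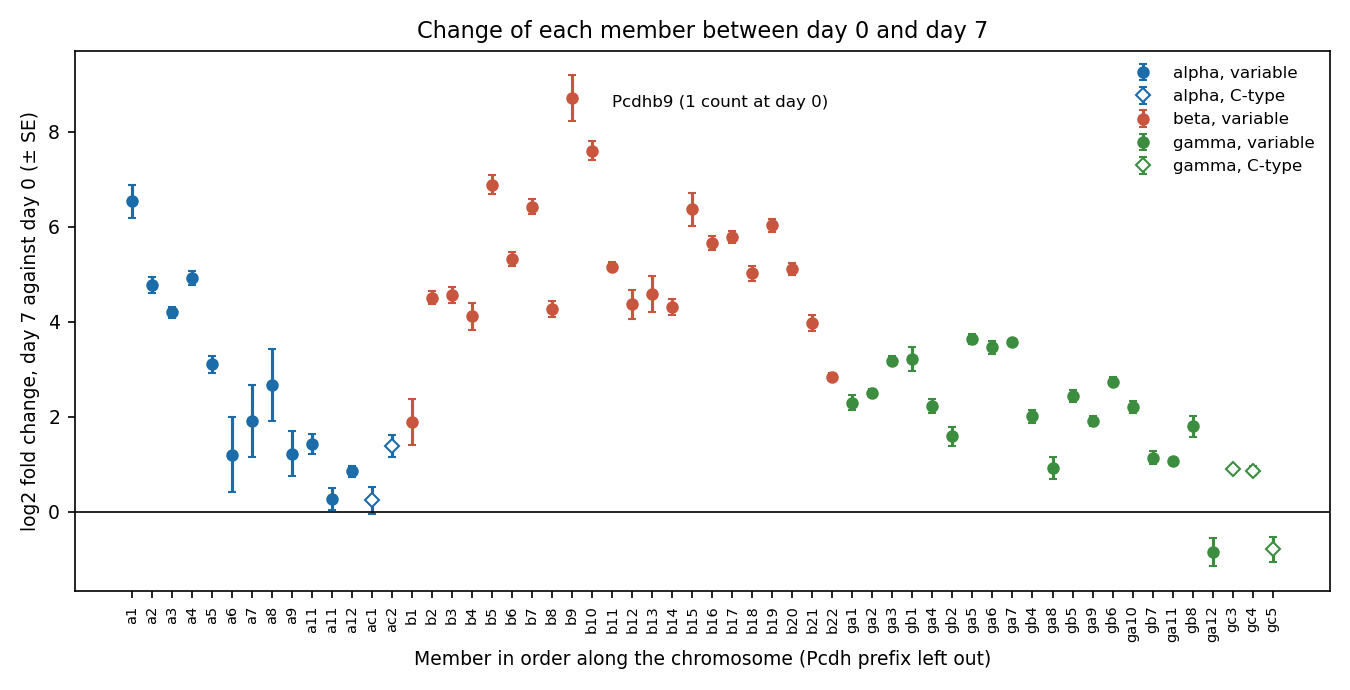
Log2 fold change from day 0 to day 7 (edgeR, bars for the SE) of each member, in order along the chromosome, with filled circles for variable genes and open diamonds for C-type genes. Beta genes hold the highest values, and Pcdhga12 and Pcdhgc5 are below 0. Alpha values tend to drop along the cluster but not at every gene, as Pcdha4 (4.91) lies above Pcdha3 (4.19). The value of Pcdhb9 rests on 1 count at day 0.

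Change followed position in the alpha cluster and, less closely, in the gamma cluster. Across the 12 variable alpha genes, Spearman's rho between order along the chromosome and the log2 fold change from day 0 to day 7 was -0.89, and across the 19 variable gamma genes it was -0.58. Across the 22 beta genes it was 0.01. These are descriptions over genes that share libraries, and in alpha and gamma also exons and divided reads. Pcdha1 to Pcdha5 rose by 3.10 to 6.54 on the log2 scale, and the 2 Pcdha11 genes and Pcdha12 lay between 0.26 and 1.42.

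Position also went with how early a gene neared its own highest level, in the variable alpha genes and in the beta genes. Spearman's rho between order along the cluster and the percentage of a gene's own highest day mean reached at day 2 was 0.87 over 12 alpha genes, 0.59 over 22 beta genes and -0.01 over 19 gamma genes, and with the first day at 50% of that mean it was -0.76, -0.61 and -0.37. These are descriptions across genes that share libraries and, in the alpha and gamma clusters, exons. In alpha they partly restate the change from day 0. Pcdha12 stood at 43.2% of its highest day mean at day 0, and Pcdha1 to Pcdha5 at 0.963% to 8.94%. The alpha values also include Pcdha6 to Pcdha9, whose highest day means were only 0.147 to 0.35 TPM. In the beta cluster the rho between order and the log2 fold change was 0.51 from day 0 to day 2, -0.48 from day 2 to day 4 and -0.65 from day 4 to day 7. At day 2 Pcdhb22 and its neighbour Pcdhb21 stood at 75.1% and 57.4% of their own highest day mean, whereas Pcdhb9 stood at 6.01% and Pcdhb10 at 6.35%. Both Pcdhb21 and Pcdhb22 had their highest day mean at day 4, and the other 20 beta genes had it at day 6 or 7. Some exonic bases are shared by Pcdhb21 and Pcdhb22, which overlap at their ends. A beta gene first reached 50% of its highest mean at day 3.5 in the median, over a range of day 2 to day 5. The median was day 3.5 for variable alpha genes and day 4 for variable gamma genes.

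**Figure D5:**
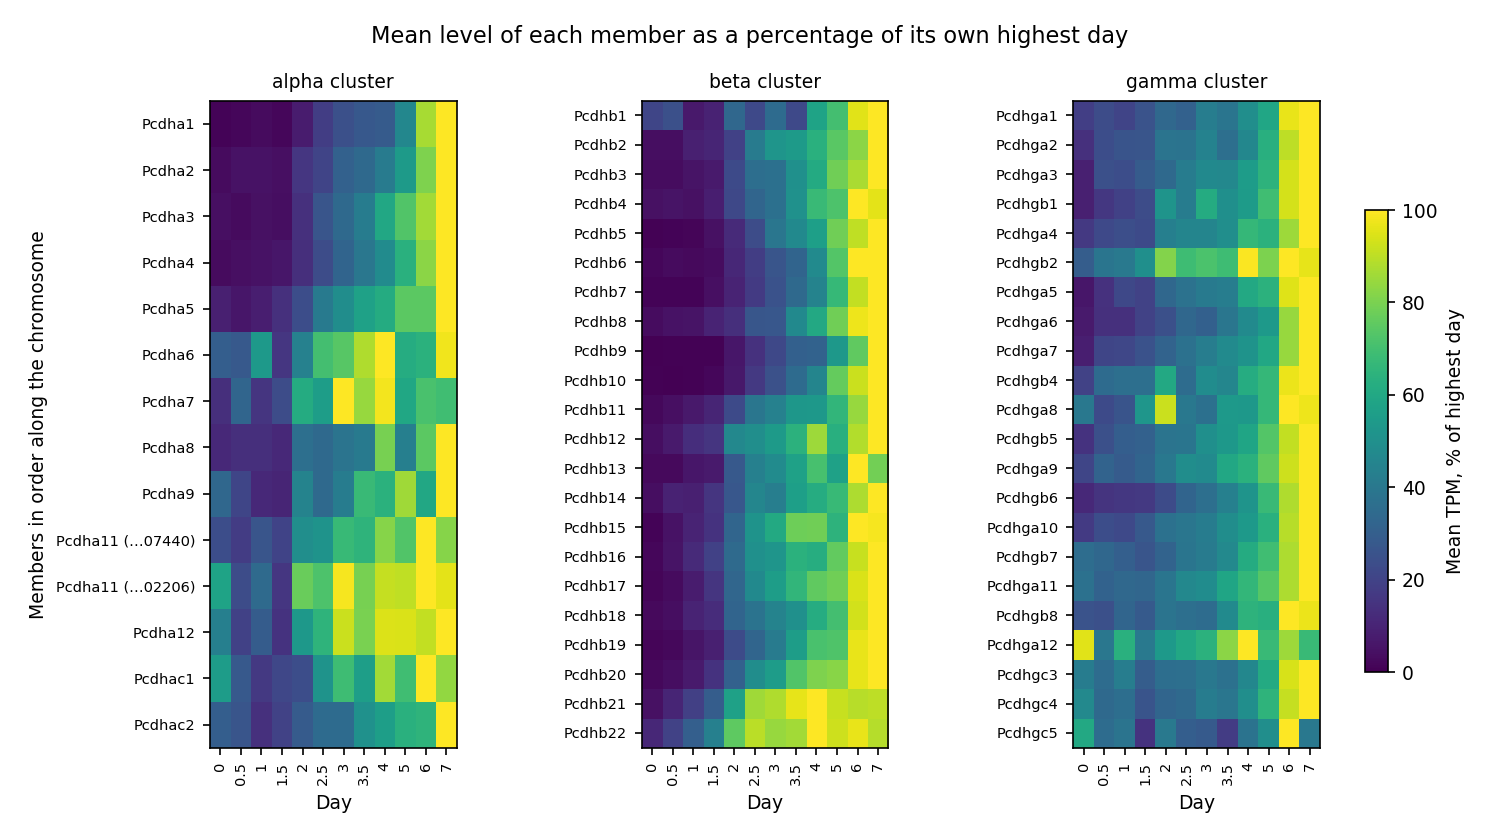
Day mean TPM of each member as a percentage of its own highest day mean, with members from top to bottom in order along the chromosome and 1 panel a cluster. Pcdhb21 and Pcdhb22 are bright from day 2 on, Pcdhb9 is still at 31.4% at day 4, and Pcdhga12 is already at 95.7% at day 0.

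More members were present at later days, and the mix became more even up to about day 4. A level of at least 1 TPM was reached by 15 to 17 members in the day 0 libraries, 39 to 41 at day 2, 46 to 47 at day 4 and 49 to 50 at day 7. The effective number of members, the exponential of the Shannon entropy of their shares of the summed TPM, was 7.89 ± 0.40 at day 0, 24.01 ± 0.63 at day 2, 30.0 ± 0.89 at day 4 and 26.3 ± 0.26 at day 7 (SD, n = 3). Pcdhgc3 and Pcdhgc4 together held 71.8 ± 1.50% of the summed TPM at day 0, 28.4 ± 1.16% at day 4 and 33.4 ± 0.47% at day 7. Pcdhgc3 alone held 39.4%, 15.9% and 19.2% of the summed day means on these days. The level of Pcdhgc4 rests mainly on shared exons, and the effective numbers, over all members and for gamma, were not recomputed without it. Within clusters the effective number went from 8.30 ± 0.19 at day 0 to 6.15 ± 0.15 at day 7 for alpha, where Pcdha4 came to lead. For beta it went from 11.6 ± 0.18 to 16.0 ± 0.15, and for gamma from 5.18 ± 0.18 to 8.92 ± 0.07. These numbers describe the mix over all cells of a library and say nothing of the number used by a cell.

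The order of the genes by level changed between the start and the end of the course by more than it did between replicates. Spearman's rho between the day 0 and day 7 means was 0.67 for alpha (14 genes), 0.67 for beta (22 genes) and 0.68 for gamma (22 genes), while pairs of replicates within day 0 gave 0.90 to 0.94, 0.85 to 0.87 and 0.90 to 0.95. The gamma order was near its final form early, with a rho to day 7 of 0.92 at day 0.5. The beta order at that day had a rho to day 7 of 0.54 and reached 0.93 at day 4. These are correlations across genes of the same libraries and are given without a test.

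Genes of the machinery known to act on these promoters mostly fell after day 2 in counts. The list held 15 genes for CTCF, cohesin and its loader and remover, and DNA or histone methylation. At day 2 against day 0, 4 were higher and 7 lower, beside 36.7% and 36.2% of all genes tested, and in both limma fits on TPM the split turned to 7 higher and 4 lower. At day 4 against day 2, 1 was higher and 14 lower, beside 33.1% and 31.8% of all genes, with 0 higher and 6 lower in limma. At day 7 against day 0, 2 were higher and 13 lower, beside 44.1% and 41.2%, with 2 and 11 in limma, and the median log2 fold change was -0.99 beside 0.05 over all genes. Rad21, a cohesin subunit, was among the 13 with a log2 fold change of -0.35 ± 0.04 (SE) in counts, yet its mean TPM was 137.6 at day 0 and 138.1 at day 7. Dnmt3b, a methyltransferase that sets new DNA methylation in the early embryo, held 113.63, 113.81 and 117.2 TPM at day 0, 10.74, 12.16 and 11.21 TPM at day 2, and 1.86, 1.61 and 1.46 TPM at day 7. Its log2 fold change was -3.52 ± 0.06 at day 2 and -6.74 ± 0.08 at day 7, both against day 0 (SE, edgeR adjusted p = 5.3e-37 for the latter), with replicates of the days far apart. Dnmt1, which maintains methylation, fell by 1.73 ± 0.05 and Smchd1, a silencing protein related to subunits of cohesin, by 1.08 ± 0.05 over the course, while Dnmt3a rose by 0.73 ± 0.03 and Wiz, a zinc-finger partner of histone methyltransferases, by 0.57 ± 0.05. Ctcf, named for its known role after its values were seen, fell by 0.76 ± 0.04, from 114.1 to 95.4 TPM in the means. Whether these changes bear on the members was not tested.

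The protocadherins outside the clusters were split at the first step and mostly higher at the later ones. Of 12 such genes, 5 were higher and 5 lower at day 2 than at day 0, shares near the 36.7% and 36.2% of all genes tested. At day 4 against day 2, 10 were higher and 1 lower, beside 33.1% and 31.8% of all genes. The same numbers, 10 and 1, were found at day 7 against day 4, beside 33.5% and 32.9%, and at day 7 against day 0, beside 44.1% and 41.2%. Pcdh9 stood at 0.41 TPM at day 0 and 0.50 at day 2 in the means, and rose to 7.26 TPM at day 4 and 29.1 TPM at day 7 (log2 fold change from day 0 to day 7 6.60 ± 0.15). Pcdh10 had a log2 fold change of 6.63 ± 0.24 over the course and reached 10.2 TPM. Pcdh1 was the gene that fell, by 1.81 ± 0.08, from 66.5 TPM at day 0 to 10.5 TPM at day 2 and 23.0 TPM at day 7.

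Partners of the protocadherin tails and the proteases that cut them were mixed. Of 11 genes, 6 were higher and 5 lower at day 7 than at day 0, near the 44.1% and 41.2% of all genes tested, and in both limma fits on TPM 7 were higher and 2 lower. Nckap1, a subunit of the WAVE complex, was among the 5 with a log2 fold change of -0.26 ± 0.04 (SE) in counts, while its mean TPM was 110.9 at day 0 and 129.0 at day 7. Fyn, a kinase reported to act downstream of the alpha tail, rose by 1.79 ± 0.04 (log2 ± SE) to 154 TPM, and Adam10, the protease that sheds the outer part, rose by 1.06 ± 0.04 to 127 TPM. Ptk2b, the kinase Pyk2 that protocadherin tails are known to bind and inhibit, fell by 3.81 ± 0.19 to 0.50 TPM. Wasf1, a subunit of the WAVE complex that regulates actin, rose by 0.66 ± 0.06, and its partner Cyfip1 fell by 0.75 ± 0.03.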

How the data were processed

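Expected counts and TPM per gene for 36 libraries were deposited by the authors, made with RSEM on GRCm38 after bcl2fastq 2.20.0, per the submitters' processing notes. The aligner, annotation and strand setting were not given in the sources used here. The deposited TPM values are scaled to transcript length and library size. Expected counts were rounded to whole numbers and fitted with edgeR 4.0.16 (TMM scaling, filterByExpr, quasi-likelihood F test, 12 day groups, 24 residual degrees of freedom) in R 4.3.3, with Benjamini-Hochberg adjustment over 17990 genes and a threshold of 0.05. SEs were taken as the size of the log2 fold change over the root of its F statistic. Alternatives used limma 3.58.1 on log2(TPM + 1) and log2(TPM + 0.1), and DESeq2 1.42.0. Cluster ratios were tested with 100000 shuffles. Exons and positions came from GENCODE M21. The fit and the ratio test were tested on simulated data. Total counts per library, 26567321 to 35757989, set the precision, and the counting interval covers counting error only.

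Named were the 5 C-type members, the 4 members per cluster of highest mean TPM, up to 3 called members per direction and comparison of largest fold change with at least 1 TPM in the higher group, and called list genes of at least 5 TPM, up to 4 a list and comparison, of which the text gives some. Members and lists were chosen with earlier results of these data known. Lists for blood and microglia, paraxial mesoderm, endoderm and surface epithelium, and neural crest were also counted. At day 7 against day 0, 0 genes were higher and 0 lower of 1 tested from the first, 4 and 2 of 7 from the second, 1 and 4 of 6 from the third and 2 and 1 of 3 from the last, beside 44.1% higher and 41.2% lower of all genes tested. Their summed levels at day 7 were 0.07 to 0.42, 52.8 to 57.1, 94.0 to 119.9 and 34.9 to 37.5 TPM, with Gata1 and Tyrobp listed at 0 in the first and Msgn1 in the second.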

Additional observations from a re-analysis of the deposited data

How the results depend on the processing

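Each result was recomputed with other scaling, filters, tests, units and samples. The 3 cluster ratios kept direction and call in 26 of 26 comparisons with the main result, where the call is that of the test over all 12 days. Size was not judged, and the move of alpha to gamma ranged from 0.09 to 1.92. Dropping the minimum of 10 counts in 3 libraries left the same 58 members, so that setting could not change a ratio. Counts of members higher or lower stayed within 1.5 times their value in 96 of 104. The exceptions were counts of lower members: at day 7 against day 4 (1 gene) the count was 0 to 3 when a replicate was left out and 0 in limma on log2(TPM + 1) and on log2(TPM + 0.1), and at day 7 against day 0 (2 genes) it was 0 in both limma fits; the cause was not tested. Of 1144 recomputed values of named members, 1121 kept direction and call, 6 gained the call, 10 lost it and 7 turned direction without passing a test: Pcdha12 at day 7 against day 4 (-0.0179 to 0.0546 when a day 7 replicate was left out), Pcdhga11 at day 2 against day 0 (0.0449 and 0.0527 in the limma fits), and Pcdhgc5 at day 4 against day 2 (-0.0365 and -0.0825) and at day 7 against day 4 (0.0280 and 0.0609). For named genes of the lists, 1733 of 1742 kept direction and call and 9 lost it, and counts of list genes stayed within 1.5 times in 1093 of 1144. In the limma fits on TPM the median of all genes from day 0 to day 7 was 0.28 and 0.38, against 0.05 in counts, and 63.5% and 63.6% of all calls were higher, against 51.7%; for day 4 against day 2 the share was 68.6% in both, against 51.0%. No shared offset by replicate number was seen, as the correlations of same-numbered samples between compared days were -0.064 to 0.065. These values cannot tell whether same-numbered samples came from the same culture. With the replicate block, 44 members were higher and 5 lower at day 2 against day 0, and 45 and 1 at day 4 against day 2. At day 7 against day 4 they were 41 and 1, and at day 7 against day 0 they were 53 and 2. The moves of the cluster ratios were computed without the block, so it could not change them. It entered only the permutation test, which gave p = 1e-05 for each ratio. The alternative without Pcdhgc4 was chosen after seeing the data. Depth limits Pcdha6 to Pcdha9, Pcdhb1, Pcdhac1, Pcdhga12 and Pcdhgc5, which rest on few counts, and division of reads between genes that share exons limits all alpha and gamma values.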
